A study of Homo sapiens with 6 samples.

Results

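The genes described here are 10 genes of the integrated stress response, chosen by gene symbol from the 62710 genes of the count table: ATF4, its relatives ATF5 and DDIT3, its partners CEBPB and CEBPG, and the target genes TRIB3, CHAC1, SESN2, ASNS and VLDLR. Gene expression was measured by RNA sequencing in HCT116, an established human colon cancer cell line. The question was how knockdown (KD) of IGF2BP3, an RNA-binding protein that reads and stabilises messenger RNAs, altered the transcriptome of these cells. Of the 6 libraries, 3 came from cells with a scrambled control hairpin (sh-NC) and 3 from cells with a short hairpin RNA against IGF2BP3 (sh-IGF2BP3). According to the study's methods, both hairpins were delivered by lentivirus and the infected cells were selected with puromycin, so the control cells also carried a vector and had passed selection. The series is described as 3 pairs of control and KD cells, without a statement of what a pair shares. A single hairpin sequence was used against IGF2BP3, and nothing in the labels states that the 3 libraries of a group came from separate cultures, so every p-value below measures the spread between these libraries, which may be technical.

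The integrated stress response is the pathway by which cells that run short of amino acids or heme, accumulate misfolded protein or are infected by viruses slow protein synthesis. Stress-activated kinases phosphorylate the initiation factor eIF2, which blocks its exchange factor eIF2B, lowers translation in general and raises translation of ATF4 through upstream open reading frames in its messenger RNA. ATF4 then pairs with C/EBP proteins on a composite DNA element and switches on genes for amino acid uptake and synthesis, transfer RNA charging and glutathione turnover, among them the cystine transporter gene SLC7A11 on which the study centred. RNA counts report transcript levels and do not measure the translational step.

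The 2 hairpin target sequences that define the groups were the following, given 5′ to 3′.
sh-NC: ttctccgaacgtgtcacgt
sh-IGF2BP3: ggctcagggaagaatttat

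The DNA element bound by ATF4 and C/EBP pairs has the core TGATGNAA. This core was searched on both strands in the 250 bases before each RefSeq transcription start on GRCh38.p14. It was found for 3 of the 10 genes, in 1 promoter each of the 19 promoters listed for these genes. Over the whole promoter table, 1104 of 35116 promoters (3.14%) and 1061 of 27305 genes (3.89%) held it. The 30-base windows around the 3 matches are shown because these are the promoters of the set that carry the element in the stretch searched. Capitals mark the core, and in CHAC1 it reads as its reverse complement, TTGCATCA. Each window is written in the direction of transcription.
ASNS, chr7:97872458-97872487, minus strand, 68 bases before the start: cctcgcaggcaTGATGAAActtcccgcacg
CHAC1, chr15:40953251-40953280, plus strand, 209 bases before the start: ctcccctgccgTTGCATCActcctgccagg
CEBPG, chr19:33374060-33374089, plus strand, 42 bases before the second listed start: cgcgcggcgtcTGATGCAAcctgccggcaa
The ASNS and CHAC1 windows lie inside an exon of a longer transcript of the same gene in GENCODE 29. The CEBPG window lies inside the gene and in none of its GENCODE 29 exons. A match to these letters is a description and does not show binding. For the other 7 genes it says only that the core is not in the stretch searched. In the comparison of KD with control, the log2 fold changes of these 3 genes were −0.70 for ASNS, 0.01 for CHAC1 and −0.54 for CEBPG.

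Library totals ran from 16146718 to 23576469 counts. Levels are given as CPM, a gene's reads as a share of its library, for the cell type markers without TMM normalization. The epithelial markers EPCAM, CDH1, KRT8, KRT18 and KRT19 were above 1 CPM in every library, whereas the intestinal markers VIL1, CDX1 and LGALS4 were at or near 0. Of 9 markers of blood, endothelium, fibroblasts and liver, COL1A1 stood at 26.8 to 58.6 CPM and each of the others at most at 2.90 CPM. The summed level of these 9 was 29.4 to 57.1 CPM in sh-NC and 31.4 to 62.6 CPM in sh-IGF2BP3 libraries. In bulk RNA, fewer cells of a type and less RNA per cell cannot be told apart. From here on CPM values are TMM-normalised. IGF2BP3 itself, the gene targeted, measured 90.3, 84.1 and 70.3 CPM in sh-NC replicates 1, 2 and 3 and 60.2, 52.3 and 55.8 CPM in the sh-IGF2BP3 replicates. All KD values lay below all control values, with a log2 fold change of −0.54 (SE 0.181, edgeR adjusted p = 0.126). The KD libraries thus kept on average 0.687 of the control level of this messenger RNA. The study reported the knockdown in HCT116 cells by qPCR and Western blotting as well, whereas the counts hold no protein level. With the GC and length trends described below removed, the log2 fold change of IGF2BP3 was −0.22 and the groups overlapped.

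All 10 genes had enough counts to be tested. Among 16753 tested genes, edgeR called 0 (0%) when both a difference of more than 1.5-fold and an adjusted p below 0.05 were required, and 0 of the 10 genes was called. The smallest adjusted p over all genes was 0.0563. At an unadjusted p below 0.05, 2 of the 10 were higher in KD (ATF5 and CEBPB) and 2 were lower (ASNS and CEBPG), against 13.6% of all tested genes higher and 8.54% lower. DESeq2, which called 696 genes in all (5.23% of those it gave an adjusted p), called 0 of the 10 and gave no adjusted p for VLDLR. At an unadjusted p below 0.05 it had the same 4, but the share of all genes at that level was not computed for DESeq2. A fold change of 1.5 or more, with no test, was seen for 3 of the 10 (ATF5 and CEBPB higher, ASNS lower), against 22.4% of all tested genes. The groups did not overlap for ATF5, which was higher in every KD library, and for CEBPG, which was lower in every KD library. The share of all tested genes without overlap was 13.2% higher in KD and 11% lower. None of these counts is read as a result about the set. The median log2 fold change of the 10 was 0.16, with 8 above 0 and 2 below, and that of all tested genes was −0.01, with the middle 50% between −0.33 and 0.34.

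Fold changes in this comparison followed the GC content of the transcripts, so the median of genes of like GC content is given beside each of the 10 genes. Ordered by GC content into 20 bins, the tested genes had a median log2 fold change of −0.36 in the bin with a median GC content of 35.7% and of 0.64 in the bin at 65.9%. The 10 genes span 42.7% GC (VLDLR) to 66.2% GC (CEBPB), with a median of 58.1%, whereas the median over tested genes was 48.7%. When each library's trends with GC content and gene length were removed, the median of the 10 went from 0.16 to −0.14, with 5 genes above 0 and 5 below. A direction for the set as a whole was therefore not the same under both treatments of the data.

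**Figure D1:**
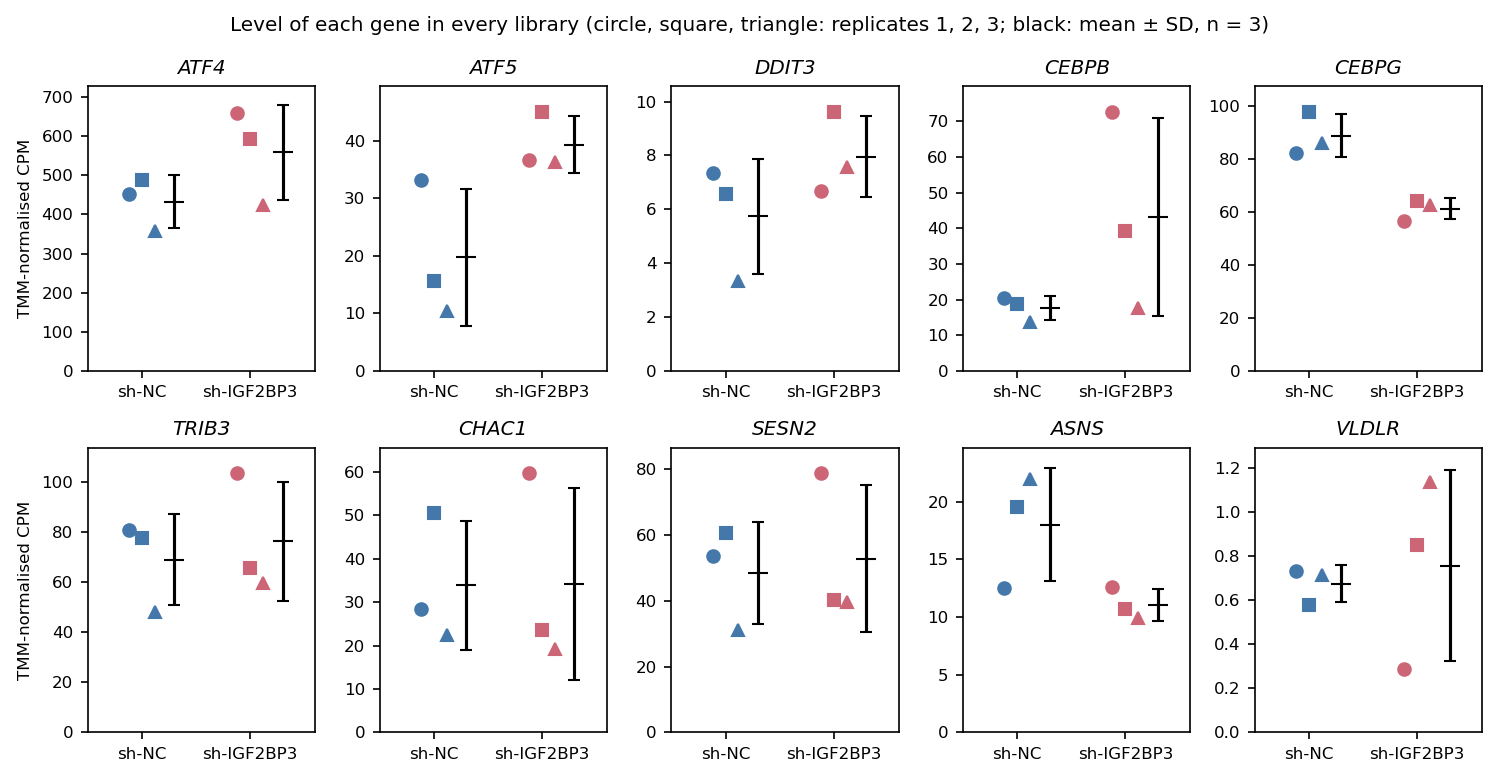
Level of each gene as TMM-normalised CPM (vertical axis, from 0) in the 3 sh-NC (blue) and 3 sh-IGF2BP3 (red) libraries, with circle, square and triangle for replicates 1, 2 and 3 and black bars for the mean ± SD (n = 3). The groups are apart for ATF5 and CEBPG, overlap for ASNS by a single pair of libraries at 12.5 and 12.6 CPM, and overlap for the other 7 genes.

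ATF4 (ENSG00000128272, chromosome 22, 39519695 to 39522683, plus strand of GRCh38, as for all positions below), the transcription factor at the centre of the pathway, had the highest level per gene length of the set. It measured 452, 489 and 357 CPM in sh-NC replicates 1, 2 and 3, and 659, 592 and 425 CPM in sh-IGF2BP3 replicates 1, 2 and 3. KD replicates 1 and 2 were above every control library, while KD replicate 3 fell inside the control range. The means were 433 ± 67.98 and 559 ± 120.5 CPM (SD, n = 3), with a log2 fold change of 0.37 (95% interval −0.08 to 0.82, adjusted p = 0.317). An exact two-sided permutation test of the 3 against 3 values gave p = 0.3, where the smallest value it can give is 0.1. Genes of like GC content had a median of 0.30, and with the GC and length trends removed the fold change of ATF4 was 0.03. Its 4 annotated pseudogenes together took 84 counts over the 6 libraries against 54903 for ATF4, or 0.153%.

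ATF5 (ENSG00000169136, chromosome 19, 49928702 to 49933935, plus strand), a second basic leucine zipper factor of the pathway that is also controlled at translation and is known from mitochondrial stress, was higher in every KD library. The control libraries read 33.2, 15.7 and 10.4 CPM and the KD libraries 36.7, 45.1 and 36.3 CPM. The control values differed 3.18-fold among themselves and the highest of them, sh-NC 1, lay close under the KD range, which spanned 1.24-fold. The mean was 19.8 ± 11.9 CPM in sh-NC and 39.3 ± 4.96 CPM in sh-IGF2BP3 (SD, n = 3), a log2 fold change of 1.00 (95% interval 0.33 to 1.67, adjusted p = 0.121). The exact permutation p was 0.1, the smallest this design allows. Without sh-NC 1 the log2 fold change was 1.59 with an edgeR adjusted p of 0.00179, and without a filter on low counts the edgeR adjusted p was 0.00466, so that the call turned on these choices. Of all genes, 15.7% were called without sh-NC 1 and 2.3% without the filter. Genes of like GC content had a median of 0.43, and 94.3% of them were lower than ATF5. With the GC and length trends removed the value was 0.60 and the groups overlapped. ATF5 overlaps NUP62, a nuclear pore gene on the opposite strand with 1551 to 3034 counts per library, over 1063 bases. NUP62 was also higher in every KD library (log2 fold change 0.62), and since the use of strand in counting is not given in the sources used here, reads of the 2 genes in the shared stretch cannot be told apart. IL4I1, on the opposite strand too, took 2 to 13 counts per library, and MIR4751 and ENSG00000269179 took 0.

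DDIT3 (ENSG00000175197, chromosome 12, 57516588 to 57521737, minus strand), which encodes CHOP, the factor linked to cell death under prolonged stress, stood among the lower genes of the set per length. Its values were 7.34, 6.57 and 3.32 CPM in control and 6.69, 9.61 and 7.55 CPM in KD libraries. KD replicates 2 and 3 were above all control libraries, and KD replicate 1 lay inside the control range. The log2 fold change of 0.47 had a 95% interval of −0.21 to 1.14 (adjusted p = 0.394, exact permutation p = 0.2). It was 0.40 with the trends removed. Genes of like GC content had a median of −0.01, and 90.3% of them had a lower fold change than DDIT3. The gene shares 982 bases with MARS1 and 1028 bases with MBD6, both on the opposite strand. MARS1 took 4826 to 9329 and MBD6 500 to 793 counts per library, against 65 to 159 for DDIT3, and their log2 fold changes were −0.12 and −0.03. On its own strand MIR616 took 8 to 21 counts, and ENSG00000285133, which shares 2769 bases with DDIT3, took 0. How reads in these shared stretches were assigned is not known.

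The C/EBP partners differed in sign. CEBPB (ENSG00000172216, chromosome 20, 50190830 to 50192668, plus strand), a C/EBP factor that pairs with ATF4 and DDIT3, measured 20.4, 18.7 and 13.8 CPM in sh-NC and 72.6, 39.2 and 17.5 CPM in sh-IGF2BP3 libraries. The KD libraries ran over a 4.14-fold range, and KD replicate 3 was inside the control range. Its log2 fold change of 1.29 (95% interval 0.53 to 2.05, adjusted p = 0.103) was the largest of the 10 on the deposited counts, and the exact permutation p was 0.3. Of all tested genes, 94.9% had a smaller spread within groups. Without KD replicate 3 the value was 1.65 (edgeR adjusted p = 0.0286, with 1.31% of all genes called) and without sh-NC 1 it was 1.41 (edgeR adjusted p = 0.0157). Without KD replicate 1 it was 0.69 (edgeR adjusted p = 0.325). CEBPB had the highest GC content of the set, genes of like GC content had a median of 0.64, and removal of the trends brought CEBPB from 1.29 to 0.51. With no filter on low counts it was called, at an edgeR adjusted p of 4.07e-05. CEBPB-AS1, on the opposite strand, overlaps it over 669 bases and took 8 to 21 counts per library.

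CEBPG (ENSG00000153879, chromosome 19, 33373685 to 33382686, plus strand), the C/EBP protein without an activation domain that forms dimers with ATF4 in amino acid and glutathione gene control, was the steadiest gene of the set. The 3 control libraries gave 82.4, 97.9 and 86.2 CPM and the 3 KD libraries 56.8, 64.2 and 62.8 CPM. Every KD value was below every control value, and the gap between the groups was wider than the range inside either. Only 3.87% of tested genes had a smaller spread within groups. Means of 88.8 ± 8.08 and 61.3 ± 3.96 CPM (SD, n = 3) gave a log2 fold change of −0.54 (95% interval −0.91 to −0.16, adjusted p = 0.124, exact permutation p = 0.1). With the trends removed it was −0.39 and the groups still did not overlap, which held for no other gene of the 10. Its fold change on the counts was under the 1.5-fold threshold (with limma on log2(FPKM + 0.1) it was −0.61, just past it), and genes of like GC content had a median of −0.20, with 17.5% of them lower than CEBPG. Without sh-NC 1 the adjusted p was 0.0412 at a log2 fold change of −0.58, again just under that threshold.

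**Figure D2:**
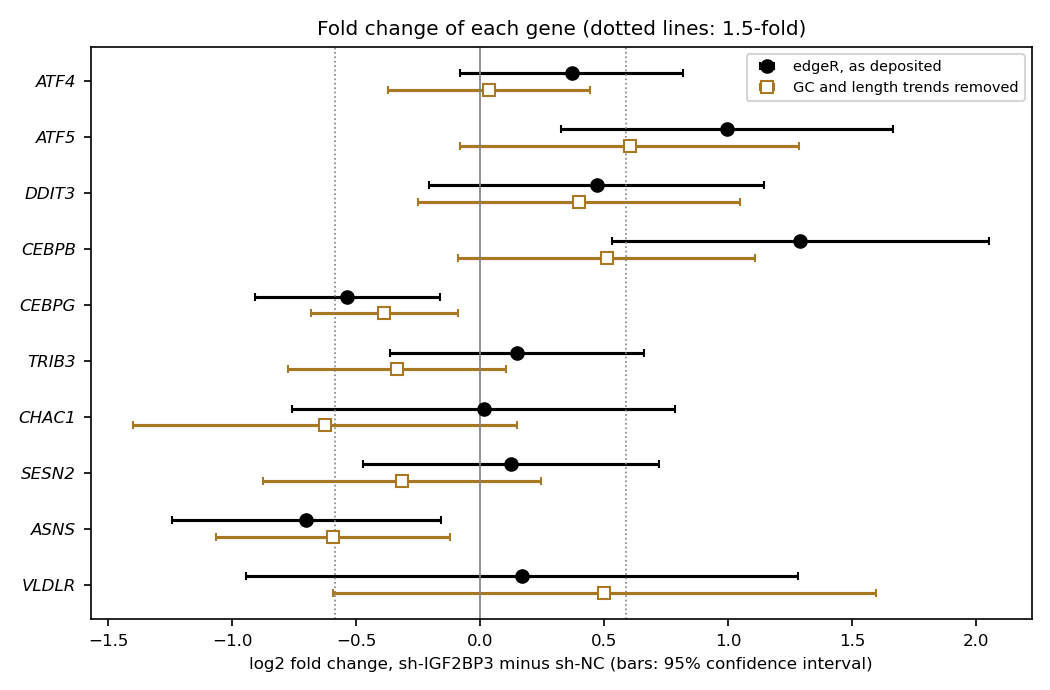
Log2 fold change of each gene (horizontal axis, sh-IGF2BP3 minus sh-NC) with its 95% confidence interval, from edgeR on the deposited counts (black circles) and after removal of the GC and length trends (open squares); dotted lines mark 1.5-fold. In black, 4 intervals leave out 0 (ATF5, CEBPB, CEBPG and ASNS), and in the open squares those of CEBPG and ASNS do.

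TRIB3 (ENSG00000101255, chromosome 20, 362835 to 397559, plus strand), a pseudokinase that ATF4 induces and that in turn restrains ATF4 and AKT signalling, measured 81.0, 77.7 and 48.2 CPM in sh-NC and 103, 65.8 and 59.7 CPM in sh-IGF2BP3. The values of the groups were interleaved. SESN2 (ENSG00000130766, chromosome 1, 28259518 to 28282491, plus strand), a sestrin that senses leucine and holds back mTORC1, gave 53.7, 60.8 and 31.2 CPM in sh-NC and 78.8, 40.4 and 39.5 CPM in KD cells. Here too the groups were interleaved, with a KD library highest and a control library lowest. The log2 fold changes were 0.15 for TRIB3 (SE 0.241, adjusted p = 0.749) and 0.12 for SESN2 (SE 0.281, adjusted p = 0.822). Genes of like GC content had medians of 0.43 for TRIB3 and 0.35 for SESN2. Removal of the trends turned both genes below 0, to −0.33 and −0.32.

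CHAC1 (ENSG00000128965, chromosome 15, 40952962 to 40956512, plus strand), the enzyme that breaks down glutathione inside cells and a widely used readout of cystine shortage, read 28.4, 50.6 and 22.5 CPM in the control libraries. In the KD libraries it read 59.6, 23.7 and 19.2 CPM. The highest and the lowest of the 6 values were both KD libraries. The means of 33.8 ± 14.8 and 34.2 ± 22.2 CPM (SD, n = 3) were almost the same, and the 95% interval of the log2 fold change of 0.01 reached from −0.76 to 0.78 (adjusted p = 0.986, exact permutation p = 0.9). A change of 1.5-fold either way lies inside that interval. CHAC1 is rich in GC (62.6%), genes of like GC content had a median of 0.51, and 9.48% of them were lower than CHAC1. With the trends removed its value was −0.63 (95% interval −1.40 to 0.15).

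ASNS (ENSG00000070669, chromosome 7, 97851677 to 97872542, minus strand), asparagine synthetase, makes asparagine from aspartate and glutamine and is a standard amino acid response gene. Its control libraries measured 12.5, 19.5 and 22.0 CPM and its KD libraries 12.6, 10.7 and 9.94 CPM. Only the lowest control library (12.53 CPM) and the highest KD library (12.64 CPM) crossed. The mean went from 18.0 ± 4.90 to 11.1 ± 1.40 CPM (SD, n = 3), a log2 fold change of −0.70 (95% interval −1.24 to −0.16, adjusted p = 0.142, exact permutation p = 0.2). With RLE in place of TMM normalization the groups did not overlap, as for 12.5% of all tested genes higher and 11.4% lower. Genes of like GC content had a median of −0.14, and 7.03% of them were lower than ASNS. After removal of the trends it was −0.60 with an interval that still left out 0 (−1.07 to −0.12). Without sh-NC 1 it was −0.90 (edgeR adjusted p = 0.0152), and without sh-NC 3 it was −0.56 (edgeR adjusted p = 0.447). A long noncoding RNA (ENSG00000284707) on the same strand overlaps ASNS over 20855 of its 20866 bases and took 24 to 47 counts per library, against 163 to 473 for ASNS. Since the counter is not given, how reads in this shared stretch were assigned is not known. The ASNS counts may therefore leave out part of its reads. The 5 pseudogenes of ASNS took 6 counts over all libraries, or 0.356% of the 1684 of ASNS, and the pseudogene ENSG00000226744, which lies within it on the other strand, took 0 to 7 per library.

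VLDLR (ENSG00000147852, chromosome 9, 2621182 to 2660056, plus strand), a lipoprotein receptor that ATF4 raises under endoplasmic reticulum stress, was barely present. It had 13, 14 and 14 counts in sh-NC and 5, 13 and 20 counts in sh-IGF2BP3 libraries, or 0.734, 0.578 and 0.715 CPM against 0.286, 0.850 and 1.14 CPM. The KD libraries held both the lowest and the highest value. At this depth the log2 fold change of 0.17 came with a 95% interval of −0.94 to 1.28 (adjusted p = 0.871), so that a change of 1.5-fold in either direction was not detectable. Genes of like GC content had a median of −0.25, and with the trends removed the value of VLDLR was 0.50. VLDLR-AS1, on the opposite strand, took 0 to 9 counts per library and ENSG00000286670 took 0.

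Levels can be compared between genes only per length, for which the deposited FPKM values (counts scaled to library total and gene length) were used. In sh-NC libraries ATF4 stood first at 169 ± 21.5 FPKM (mean ± SD, n = 3), and its 3 values were above those of all other genes of the set. CEBPG (22.5), TRIB3 (21.3), CHAC1 (16.9), SESN2 (14.3), CEBPB (9.76), ATF5 (6.84), DDIT3 (4.44) and ASNS (3.82 FPKM) followed, and each overlapped the next in its range over libraries. The places of ATF5, DDIT3 and ASNS hold for reads as counted, since assignment in stretches shared with other genes is not known. VLDLR came last at 0.0420 ± 0.00572 FPKM, below all values of ASNS. In KD libraries the mean of CEBPB was 23.0 ± 15.4 FPKM, against 14.7 ± 0.559 for CEBPG, although the range of CEBPB took in that of CEBPG. ATF5 then stood at 13.2 ± 1.38 FPKM, above all values of DDIT3 (5.89 ± 0.957), which in turn were above all those of ASNS (2.20 ± 0.334).

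**Figure D3:**
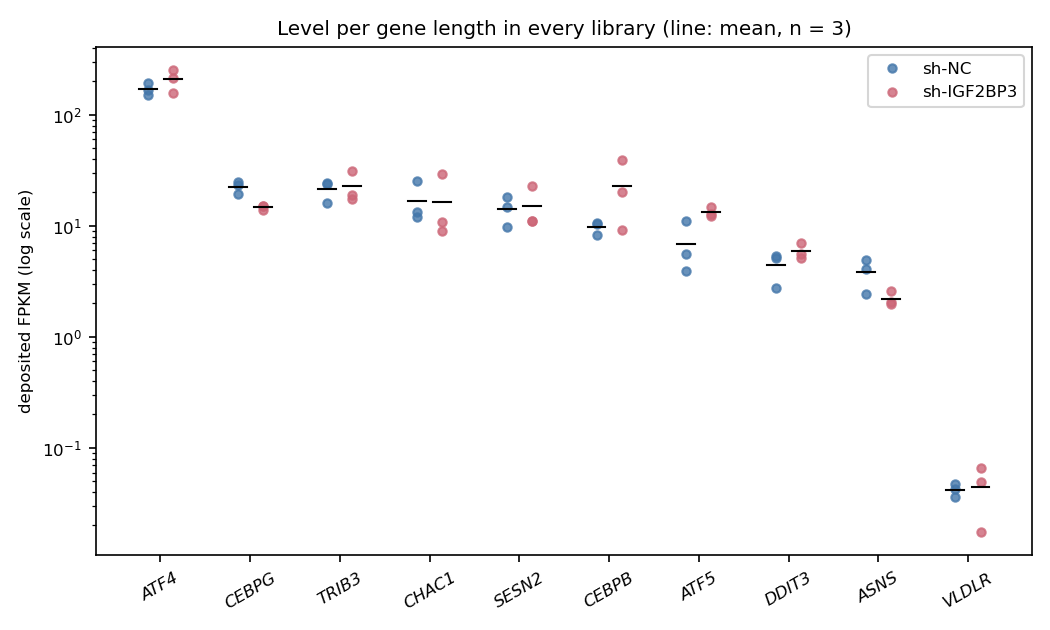
Deposited FPKM (vertical axis, log scale) of each gene in the 3 sh-NC (blue) and 3 sh-IGF2BP3 (red) libraries, ordered by the sh-NC mean, with black lines for the means. ATF4 stands above the rest in both groups, the next 8 genes form a run of overlapping sh-NC ranges from 22.5 down to 3.82 FPKM, and VLDLR lies near 0.04 FPKM.

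The genes did not vary as 1 unit across the libraries. Each library was compared with the mean of all 6 on the log2 CPM scale. The library sh-IGF2BP3 1 had the highest value of the 6 for 5 genes (ATF4, CEBPB, CHAC1, SESN2 and TRIB3) and the lowest for CEBPG and VLDLR. The control library sh-NC 3 had the lowest value for 6 genes (ATF4, ATF5, CEBPB, DDIT3, SESN2 and TRIB3) and the highest for ASNS. With the GC and length trends removed, sh-NC 2 held the highest value for 5 genes (ATF4, CEBPG, CHAC1, SESN2 and TRIB3), and sh-IGF2BP3 1 for CEBPB alone.

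Pairs of genes were compared on the deposited counts, with the GC and length trends left in. Of the 45 pairs of genes, the 3 most alike in their values over the 6 libraries were TRIB3 with SESN2 (root mean square difference 0.127 on the log2 scale), ATF4 with TRIB3 (0.217) and ASNS with CEBPG (0.270). The first 2 pairs shared the high sh-IGF2BP3 1 and low sh-NC 3 values. With the trends removed, sh-NC 2 was instead the highest library for TRIB3, SESN2 and ATF4. The pair of ASNS and CEBPG was lower in KD, and these were the only genes of the 10 with a negative fold change. Among 61 further genes of the pathway with enough signal, those nearest to ATF4 were the glutamine transporter gene SLC1A5 (0.117), the secreted stanniocalcin gene STC2 (0.141) and SLC3A2 (0.153), the heavy chain shared by several amino acid transporters. These likenesses describe 6 libraries, carry no test and were not computed with the trends removed. After that removal the log2 fold changes were 0.03 for ATF4, −0.03 for SLC1A5, 0.09 for STC2 and −0.07 for SLC3A2.

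**Figure D4:**
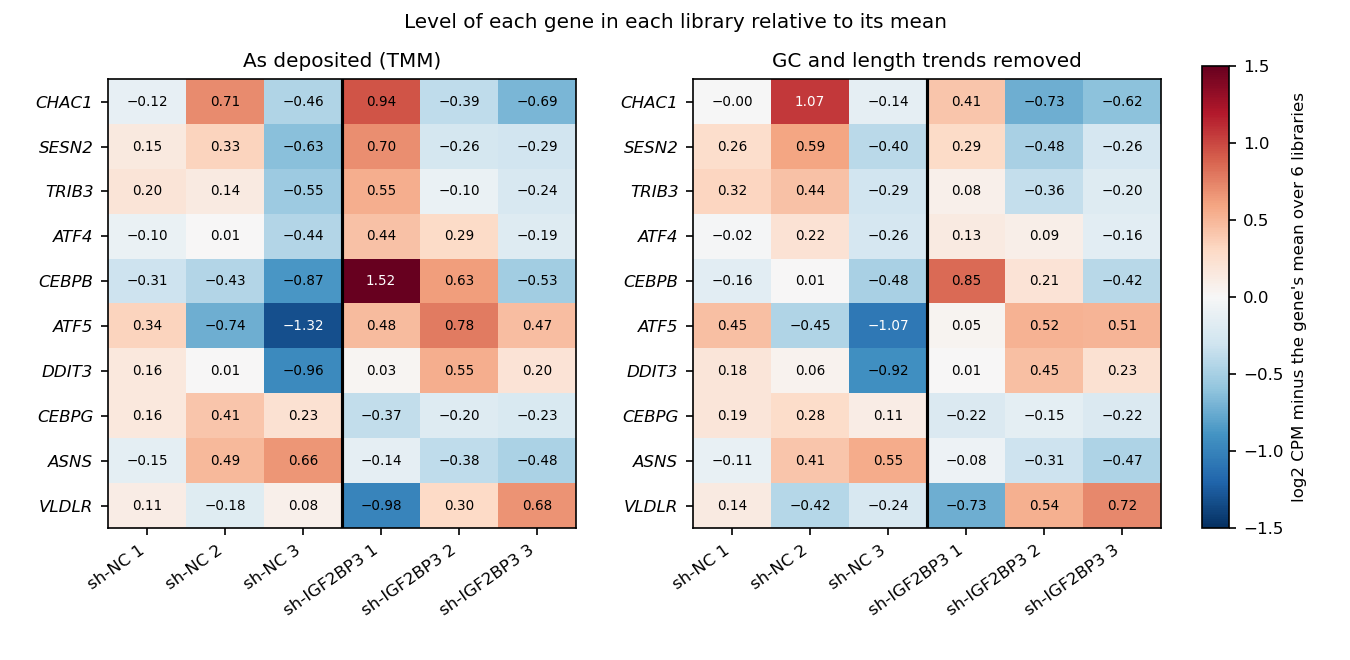
Log2 CPM of each gene in each library minus its mean over the 6 libraries (colour and printed number), on the deposited counts with TMM (left) and after removal of the GC and length trends (right); the black line parts the 3 sh-NC from the 3 sh-IGF2BP3 libraries. On the left the sh-IGF2BP3 1 column is high for CHAC1, SESN2, TRIB3, ATF4 and CEBPB, and on the right that column is the highest of the 6 for CEBPB alone while CEBPG stays below 0 in every KD library.

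**Figure D5:**
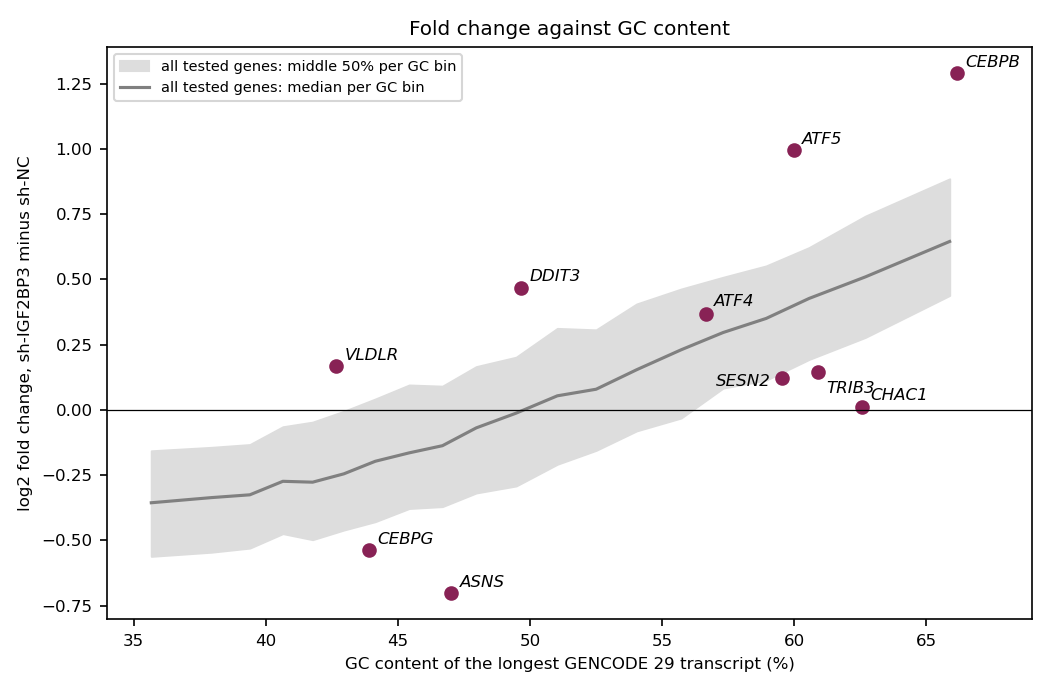
Log2 fold change (vertical axis) of the 10 genes (points) against the GC content of the longest transcript (horizontal axis, percent), with the median (line) and the middle 50% (band) of all tested genes in 20 GC bins. CEBPB, ATF5, DDIT3 and VLDLR lie above the band, ATF4 inside it, SESN2 at its lower edge, and CHAC1, TRIB3, ASNS and CEBPG below it.

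The rest of the pathway was read from a list of 69 further genes, of which edgeR called 0. The 4 eIF2 kinases that start the response gave log2 fold changes of −0.12 for EIF2AK1 (HRI, the heme sensor), −0.29 for EIF2AK2 (PKR, the double-stranded RNA sensor), −0.15 for EIF2AK3 (PERK, the endoplasmic reticulum sensor) and −0.08 for EIF2AK4 (GCN2, the amino acid sensor). The adjusted p-values of the 4 ran from 0.384 to 0.822. EIF2AK2 was lower in all KD libraries than in any control library with the deposited counts, at 79.1, 110.3 and 114 CPM against 117, 127 and 126 CPM, and its fold change was 0.09 with the trends removed. PPP1R15A (GADD34), the phosphatase subunit that closes the response by removing the phosphate from eIF2, had the largest positive value of the 11 upstream genes, of which 4 were positive and 7 negative (8 and 3 with the trends removed). It measured 83.4, 52.3 and 34.2 CPM in sh-NC and 127, 94.1 and 75.6 CPM in KD libraries (log2 fold change 0.80, SE 0.275, adjusted p = 0.1298), and only KD replicate 3 fell below a control library. OMA1, the mitochondrial protease that relays stress to HRI, had the largest negative value (−0.30, adjusted p = 0.478). With the trends removed PPP1R15A was at 0.42 and OMA1 at −0.14.

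Among the 5 subunits of eIF2B, 4 had positive values and 1 negative, from 0.48 for EIF2B2 (adjusted p = 0.208) to −0.08 for EIF2B3 (adjusted p = 0.856). The split was the same with the trends removed, when EIF2B2 was at 0.61 and EIF2B3 at −0.09. Of 10 further basic leucine zipper factors, 9 were tested (CEBPE had too few counts), with 4 positive and 5 negative, or 5 and 4 with the trends removed. ATF3, an early stress factor downstream of ATF4, stood at 0.70 (SE 0.343, adjusted p = 0.244). ATF6, the endoplasmic reticulum membrane sensor of a separate branch of the unfolded protein response, stood at −0.65 (SE 0.178, adjusted p = 0.103) with no overlap between groups. With the trends removed ATF3 stood at 0.74, and ATF6 at −0.28 with its groups still apart.

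Further ATF4 targets numbered 21, of which 18 were tested (NUPR1, FGF21 and INHBE had too few counts), with 8 positive and 10 negative and a median log2 fold change of −0.03. At an unadjusted p below 0.05, 1 of them was higher and 5 were lower, against 13.6% higher and 8.54% lower over all tested genes, and each of the other lists had at most 1 gene in either direction. With the trends removed, 1 target was higher (CHAC2) and 2 were lower (PCK2 and CTH), of which CTH alone was among the 5. In that fit 1750 of the 16753 tested genes had an unadjusted p below 0.05, in either direction. The largest positive value of the targets on the deposited counts was that of EIF4EBP1, the repressor of cap-dependent translation (0.69, SE 0.268, adjusted p = 0.159). It went to 0.01 with the trends removed. The largest negative value among well-detected targets was that of KLHL24, a ubiquitin ligase adaptor (−0.74, SE 0.283, adjusted p = 0.153). Of 9 amino acid transporter genes, 8 were tested (SLC7A3 had 0 counts), with 3 positive and 5 negative, and with 0 positive and 8 negative once the trends were removed. SLC7A11, the cystine transporter subunit, measured 187, 236 and 189 CPM in sh-NC and 104, 98.6 and 104 CPM in KD libraries. Its groups were far apart, with a log2 fold change of −0.996 (SE 0.183, adjusted p = 0.103), and −0.57 with the trends removed. At the other end was SLC1A5 with 0.45 (SE 0.207, adjusted p = 0.220), without overlap, and −0.03 after the trends were removed. The 13 aminoacyl-tRNA synthetase genes, which charge transfer RNAs, had 1 positive and 12 negative values, with a median of −0.12. With the trends removed there were 3 positive and 10 negative values and the median was −0.10. On the deposited counts they ran from 0.47 for VARS1 (adjusted p = 0.213) to −0.46 for LARS1 (adjusted p = 0.161). With the trends removed VARS1 was at 0.04 and LARS1 at −0.05.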

How the data were processed

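Total RNA of 6 HCT116 samples was made into libraries with the Illumina TruSeq kit. For each gene, the authors deposited raw counts and, separately, FPKM values, both on GRCh38. Per the submitters' processing notes, CASAVA was among the tools, and the aligner, counter, annotation release and use of strand are not given in the sources used here. Each FPKM value was the count divided by the library total and by 1 gene length per gene, for all 36335 genes with a count in any library (tolerance 1e-06). A gene counted in only 1 library meets this by construction.

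The main test was that of edgeR 4.0.16 under R 4.3.3 (TMM, filterByExpr, quasi-likelihood test, no covariate), with Benjamini-Hochberg adjustment over the 16753 genes tested. A call required a difference of more than 1.5-fold together with an adjusted p below 0.05, the thresholds of the study's methods. The study itself reported differentially expressed genes at these thresholds and followed up SLC7A11, and its methods name no tool for that test. Log2 CPM used a prior count of 2. Single values were compared by two-sided exact permutation over 20 assignments. Alternatives were DESeq2 1.42.0, other scaling and filters, the replicate block, each library left out, limma 3.58.1 on FPKM, and removal of each library's trends with GC content and length (splines with 5 degrees of freedom). GC content, from the longest GENCODE 29 transcript, was known for 96.9% of tested genes. The main edgeR fit and DESeq2 were first tested on simulated data, and the other alternatives were not.

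The genes and lists were chosen with earlier results of these data known. Named from each list were called genes, the largest positive and negative fold change at a mean of at least 5 CPM, the eIF2 kinases, SLC7A11 and, as likenesses, the 3 closest pairs and the 3 genes nearest to ATF4. Hairpin sequences came from the study's supplement and promoters from RefSeq.

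Replicates within a group differed by 19.8 to 61.5 times counting noise (chi-square per degree of freedom). This value cannot tell separate cultures from repeated preparations of the same RNA. Same-numbered libraries deviated from their group means with correlations of −0.28, −0.19 and −0.04, so, although the series is described as 3 pairs, the numbers were not taken to pair the libraries.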

Additional observations from a re-analysis of the deposited data

How the results depend on the processing

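With 3 libraries a group, counts of calls depended on settings. Genes called went from 0 to 1 with RLE normalization, when every library had to hold 10 counts and with limma on log2(FPKM + 1), to 696 with DESeq2 and to 837 with no filter on low counts, and ran from 0 to 2724 when libraries were left out in turn. The 2724 came without sh-NC 1, 228 came without sh-IGF2BP3 3, 5 without sh-NC 3 and 2 without sh-NC 2. Of the 10 genes, 2 were called with no filter (ATF5 and CEBPB), against 2.3% of all genes. When libraries were left out, 0 to 3 of the 10 were called. These were ASNS, ATF5 and CEBPB without sh-NC 1 (15.7% of all genes called) and CEBPB without sh-IGF2BP3 3 (1.31%). Genes of the 10 without overlap went from 2 to 1 (CEBPG) after the GC and length trends were removed (8.45% higher and 6.69% lower of all genes). With ASNS added they were 3 under RLE (12.5% and 11.4% of all genes), no filter (6.85% and 7.61%) and the count minimum of 10 (12.4% and 12.5%). When libraries were left out they ran from 2 to 5. They were 2 without sh-IGF2BP3 2 (15% and 13.3%), and 3 without sh-NC 2 (13.8% and 13.9%) or sh-NC 3 (14.7% and 14.6%). They were 4 without sh-NC 1 (all genes 24.3% higher, 25.2% lower), 5 without sh-IGF2BP3 1 (16.6% and 15.9%) and 5 without sh-IGF2BP3 3 (21.7% and 21.3%). The cause was not tested.

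ATF4, ATF5, DDIT3, ASNS, CEBPB and CEBPG kept their direction in 16 of 16 alternatives. CHAC1 turned below 0 in 10, at −0.0061 with at least 10 counts, −0.088 with the replicate block, −0.63 with the trends removed, −0.61 with the trends removed and the block, −0.15 with limma on log2(FPKM + 1), −0.16 with 0.1 in place of 1, −0.15 with no FPKM filter, and between −0.66 and 0.42 when libraries were left out. TRIB3 and SESN2 turned below 0 at −0.33 and −0.32 with the trends removed and at −0.31 and −0.30 with the block added. When libraries were left out, TRIB3 ran from −0.13 to 0.28, SESN2 from −0.28 to 0.31 and VLDLR from −0.28 to 0.57.

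The replicate block, whose numbers correlated at −0.28, −0.19 and −0.04 between groups, called 0 genes and 0 of the 10, as did the fit without it. Where a library was left out, the smaller group kept 2 libraries. VLDLR, at 5 to 20 counts, was limited by depth.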
